A study of Mus musculus with 6 samples.

Results

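Folate hydrolase and the enzymes of one-carbon metabolism were followed through 8 of the 22374 gene symbols of the array that are in RefSeq, Folh1, Aldh1l1, Aldh1l2, Mthfd1, Mthfd2, Mthfd1l, Shmt1 and Shmt2. The members were all probes that the scanner output names for these genes, 11 of the 55681 probes on the array, with 2 probes each for Aldh1l1, Mthfd1l and Shmt1. Folh1 and Aldh1l1 were chosen by their normalized log2 signal on these same arrays, where the sorted fractions were known to differ. Their values are therefore a description without a test, and the other 6 genes were tested.

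The 6 arrays measured RNA of magnetically sorted cells from the cerebellum of neonatal wild-type mice, 3 arrays of ACSA-2 positive, GLAST positive cells (A+/G+) and 3 of ACSA-2 negative, GLAST positive cells (A-/G+). ACSA-2 is an epitope of the sodium pump subunit encoded by Atp1b2, and GLAST is the glutamate transporter encoded by Slc1a3. The labels give the strain as CD1 and the age as postnatal days 1 to 3, whereas the study's methods name another wild-type background and a slightly earlier age. Cerebella of either sex were pooled, each sample held 50000 cells, and the labels call the 3 samples of a fraction biological replicates. A+/G+ cells were selected with beads against ACSA-2 alone. A-/G+ cells were what remained after depletion of cells that carried L1CAM, ACSA-2, CD45, PSA-NCAM or Ter119, followed by selection for GLAST. The depletion of neuronal, blood and immune cells was thus applied to the A-/G+ samples alone. The 3 A+/G+ arrays lay on 1 slide and the 3 A-/G+ arrays on another, so the fractions and their slides cannot be told apart.

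The A-/G+ arrays were dimmer before normalization and less alike. The 75th percentile of the intensity was 329 to 332 on the A+/G+ arrays and 55.9, 112 and 250 on the A-/G+ arrays. The share of probes well above background was 47.5 to 47.9% and 32.9 to 44.4%. After normalization, replicate 3 of A-/G+ was as close to the other fraction as to its own. Over all probes it correlated with the A+/G+ arrays at 0.973 to 0.974, and with A-/G+ replicates 1 and 2 at 0.957 and 0.974. Atp1b2, the target of the sort, had normalized log2 signals of 12.70 to 12.97 in A+/G+ and 10.31 to 10.86 in A-/G+, and Slc1a3, the other sort marker, had 13.26 to 13.61 in A+/G+ and 14.00 to 14.92 in A-/G+ (limma, adjusted p = 0.073).

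Folates are carriers of single carbon units. Serine hydroxymethyltransferases load the unit from serine, dehydrogenases and ligases change its oxidation state or exchange it with formate, and the loaded folates serve the synthesis of purines, of thymidylate and of methionine. A mitochondrial and a cytosolic set of enzymes run in parallel and are linked by formate. In the brain, Aldh1l1 is widely used as a marker of astrocytes. The folate hydrolase Folh1, also known as glutamate carboxypeptidase II, cleaves glutamate from folate polyglutamates, and at the surface of glial cells it cleaves the peptide transmitter N-acetylaspartylglutamate (NAAG).

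The probe sequences of Aldh1l1 and Shmt1 are shown because their results below turn on which probe was read, and Folh1 is shown with its only probe. For Folh1 and Aldh1l1 the lines give the first 30 bases and for Shmt1 the whole probe of 60 bases, 5′ to 3′, with no capitals.
Folh1: gccacaatagctgacaagttataatctatt
Aldh1l1 brighter probe: aatcagaagtggctccaagtggagtgagca
Aldh1l1 dimmer probe: aagcgatgtgacataaacacttcatcctgt
Shmt1 brighter probe: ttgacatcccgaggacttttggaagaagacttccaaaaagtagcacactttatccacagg
Shmt1 dimmer probe: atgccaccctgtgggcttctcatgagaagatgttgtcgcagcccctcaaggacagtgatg
In the array's annotation on the mouse build mm9, the Folh1 probe (transcript NM_016770) lay at chr7:93867724-93867783 on the minus strand. The brighter Aldh1l1 probe (NM_027406) lay at chr6:90549091-90549150 on the plus strand. The dimmer Aldh1l1 probe (ENSMUST00000130418) began 937 bases further on, at chr6:90550028-90550087, and is assigned to another transcript. Both Shmt1 probes are assigned to NM_009171 on the minus strand. The brighter began at base 1584 of the transcript (chr11:60603099-60603158) and the dimmer at base 394 (chr11:60620453-60620512).

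Mthfd1 and Mthfd1l are paralogs, and the end of the Mthfd1 probe overlaps the start of the dimmer Mthfd1l probe in the aligned sequence. Of the 31 overlapping bases 24 were identical, and these are in capitals.
Mthfd1: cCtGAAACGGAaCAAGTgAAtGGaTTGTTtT
Mthfd1l: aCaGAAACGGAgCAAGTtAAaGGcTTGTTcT
The identical bases were interrupted throughout. Among the 52 pairs of probes of different member genes, compared without gaps, the longest shared run was 8 bases.

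Folh1 was the member with the clearest difference in level between the fractions. Its normalized log2 signal was 7.48, 7.25 and 7.35 on the A+/G+ arrays and 2.17, 3.61 and 2.13 on the A-/G+ arrays. The scanner software marked the probe as well above background on 3 of 3 arrays in A+/G+ and on 0 of 3 in A-/G+. Before normalization, the intensity was 301, 253 and 273 in A+/G+ and 4.26, 7.06 and 5.09 in A-/G+. The means were 7.36 ± 0.12 (SD, n = 3) and 2.64 ± 0.84 (SD, n = 3). Since the probe was not well above background in A-/G+, only a bound on the fold can be given. The lowest log2 signal that counted as well above background was 5.64, 4.95 and 4.03 on the A-/G+ arrays. Set against the mean of these limits, the mean A+/G+ level of Folh1 was at least 5.62-fold higher. The bound is for the means and not for each array. The fitted log2 difference of 4.72 sets A+/G+ against these values below the background limit and is no measure of size. It was 1.76 with normexp background correction. In bulk samples, fewer cells of a type and less RNA per cell cannot be told apart.

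Aldh1l1, which oxidizes formyltetrahydrofolate to tetrahydrofolate and carbon dioxide in the cytosol, was higher in level in A-/G+. The brighter probe read 14.82, 14.77 and 14.99 in A+/G+ and 15.51, 15.68 and 15.30 in A-/G+ on the normalized log2 scale. All A-/G+ arrays lay above all A+/G+ arrays, and the medians differed 1.61-fold. The dimmer probe read 8.53, 8.06 and 8.36 in A+/G+ and 10.68, 10.39 and 9.20 in A-/G+. It had the same order of the fractions and a larger step, with medians 4.08-fold apart. Replicate 3 of A-/G+ was the lowest of its fraction with both probes. The fitted differences, A+/G+ minus A-/G+, were -0.64 and -1.77. Background was clearly exceeded by both on each of the 6 arrays, and the size of the difference depended on the probe.

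Aldh1l2 encodes the mitochondrial counterpart of Aldh1l1. Its probe (chr10:82950571-82950630, minus strand) read 6.28, 6.21 and 6.22 in A+/G+ and 5.42, 6.16 and 6.17 in A-/G+. The A+/G+ arrays lay above the others, but replicates 2 and 3 of A-/G+ came close to them, and the probe was well above background on 2 of the 3 A-/G+ arrays. The difference was 0.32 ± 0.23 (SE, 95% interval -0.26 to 0.91) and did not pass the test (limma, adjusted p = 0.493).

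Across all probes of the array, 9.29% were called at an adjusted p of at most 0.05 (4.65% as higher in A+/G+, 4.64% as higher in A-/G+), and 18.9% of those well above background on all 6 arrays were. Of the 8 probes of the 6 tested members, 0 were called with limma, and 0 with the methods' t-test after adjustment. At an unadjusted p of at most 0.05 there were 3 by either test, those of Mthfd1, Shmt1 (the brighter probe) and Shmt2, where 23.3% of all probes had such a p by limma and 22.5% by the methods' t-test. For all 3, the lowest A-/G+ array exceeded the highest A+/G+ array. Over the 8 probes, A-/G+ lay wholly above in 3, A+/G+ wholly above in 2 and the fractions overlapped in 3, where 37.1% of all probes and 51.5% of those well above background on all 6 arrays did not overlap.

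**Figure D1:**
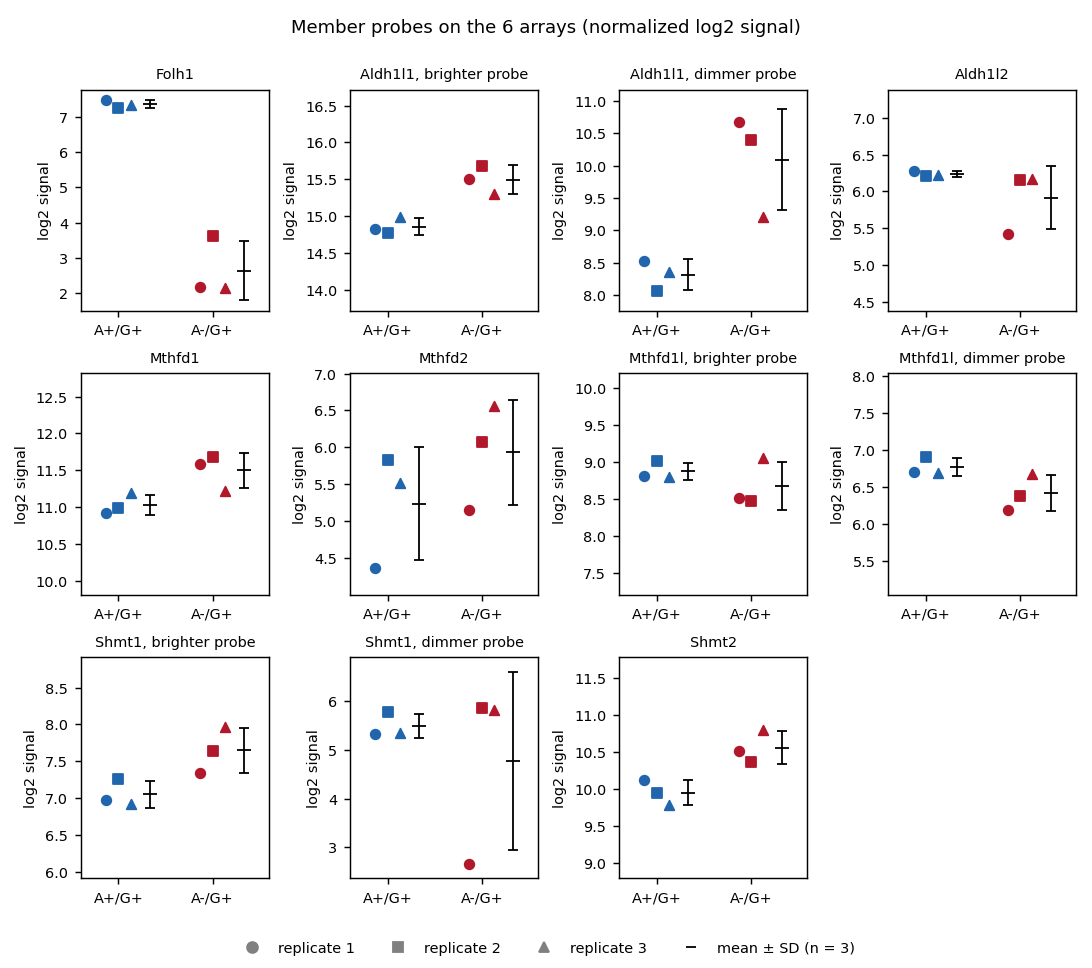
Normalized log2 signal (vertical axes, each panel with its own range) of the 11 member probes in the A+/G+ (blue) and A-/G+ (red) fractions; each point is 1 array, its shape the replicate number, and the black bars are the mean ± SD of 3 arrays. Folh1 separates most, with A-/G+ values not well above background. Aldh1l1, Mthfd1, Shmt2 and the brighter Shmt1 probe lie higher in A-/G+, and Mthfd2, the brighter Mthfd1l probe and the dimmer Shmt1 probe overlap.

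Of the pair of serine hydroxymethyltransferases, the mitochondrial Shmt2 came closest to a call. Its probe (chr10:126954811-126954870, minus strand) read 10.12, 9.94 and 9.78 in A+/G+ and 10.51, 10.37 and 10.80 in A-/G+. The groups did not overlap, with replicate 3 lowest in A+/G+ and highest in A-/G+. The difference was -0.62 ± 0.15 (SE, 95% interval -1.0 to -0.23; limma, adjusted p = 0.076). It passed only when dim probes were left out of the test (limma, adjusted p = 0.0429), where 26.1% of all probes kept were called. Its adjusted p ranged up to 0.537 over the other alternatives.

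The cytosolic Shmt1 gave different pictures with its probes. The brighter probe read 6.98, 7.26 and 6.92 in A+/G+ and 7.35, 7.64 and 7.96 in A-/G+, a difference of -0.60 ± 0.19 (SE; limma, adjusted p = 0.143). Here again every A-/G+ array was higher. The dimmer probe read 5.33, 5.78 and 5.35 in A+/G+ and 2.66, 5.86 and 5.81 in A-/G+. Replicate 1 of A-/G+, the array with the lowest overall signal, stood apart and was not well above background, while the other A-/G+ arrays were slightly above all A+/G+ arrays. The difference of 0.71 ± 0.96 (SE; limma, adjusted p = 0.670) therefore became -0.34 without A-/G+ replicate 1.

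Mthfd1 encodes the cytosolic enzyme that unites dehydrogenase, cyclohydrolase and formate ligase activities. Its probe (chr12:77418622-77418681, plus strand) read 10.92, 10.99 and 11.19 in A+/G+ and 11.58, 11.68 and 11.23 in A-/G+. The A-/G+ arrays were higher, although replicate 3 of that fraction barely exceeded the highest A+/G+ array. The difference was -0.47 ± 0.15 (SE, 95% interval -0.86 to -0.07; limma, adjusted p = 0.147). Without A-/G+ replicate 3 it was -0.60 and passed the test (limma, adjusted p = 0.0382), in a fit that called 16.2% of all probes.

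Mthfd1l, the mitochondrial formate ligase, had differences of the opposite sign. The brighter probe (chr10:6190563-6190622, minus strand) read 8.81, 9.01 and 8.80 in A+/G+ and 8.51, 8.47 and 9.05 in A-/G+. Replicates 1 and 2 of A-/G+ were lower and replicate 3 was the highest of all 6 arrays. The dimmer probe (chr10:6198416-6198475, minus strand) read 6.70, 6.91 and 6.70 in A+/G+ and 6.19, 6.38 and 6.67 in A-/G+. Here the A+/G+ arrays lay above, by a narrow margin over replicate 3. The differences were 0.19 (95% interval -0.28 to 0.67; limma, adjusted p = 0.574) and 0.36 (95% interval -0.03 to 0.74; limma, adjusted p = 0.246).

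Mthfd2, the mitochondrial dehydrogenase and cyclohydrolase that is known for its high levels in dividing and embryonic cells, was dim. Its probe (chr6:83256518-83256577, minus strand) read 4.37, 5.83 and 5.52 in A+/G+ and 5.16, 6.08 and 6.56 in A-/G+, and was well above background on 2 of 3 arrays of each fraction. Replicate 1 was the lowest of both fractions. The difference of -0.69 ± 0.55 (SE) had a 95% interval from -2.10 to 0.72 (limma, adjusted p = 0.534), the widest of any tested member but the dimmer Shmt1 probe.

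Whether the paralogs moved apart was asked within each array, as the difference of the normalized log2 signals of their brightest probes. A single pair value is not a ratio of levels, and only its change between fractions was read. For 3 arrays against 3, the exact two-sided permutation test cannot go below p = 0.1. Shmt1 minus Shmt2 was -3.14, -2.68 and -2.86 in A+/G+ and -3.17, -2.73 and -2.84 in A-/G+. The fractions differed by 0.02 (exact permutation p = 0.8, n = 3 per fraction), less than the SD of 0.23 within each. Mthfd1 minus Mthfd1l was 2.11, 1.98 and 2.39 in A+/G+ and 3.07, 3.21 and 2.17 in A-/G+, a difference of -0.66 (exact permutation p = 0.2, n = 3 per fraction). Replicate 3 of A-/G+ lay within the A+/G+ range there and the other A-/G+ arrays above it.

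Mthfd2 minus its paralog Mthfd2l, also a mitochondrial enzyme, differed by -0.44 between the fractions (exact permutation p = 0.5, n = 3 per fraction), and the arrays overlapped. Aldh1l1 minus Aldh1l2 was 8.54, 8.56 and 8.76 in A+/G+ and 10.09, 9.53 and 9.13 in A-/G+, described without a test because Aldh1l1 was chosen for its difference. All A-/G+ arrays were higher. Adjusted over the 3 tested pairs, the smallest p was 0.6.

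**Figure D2:**
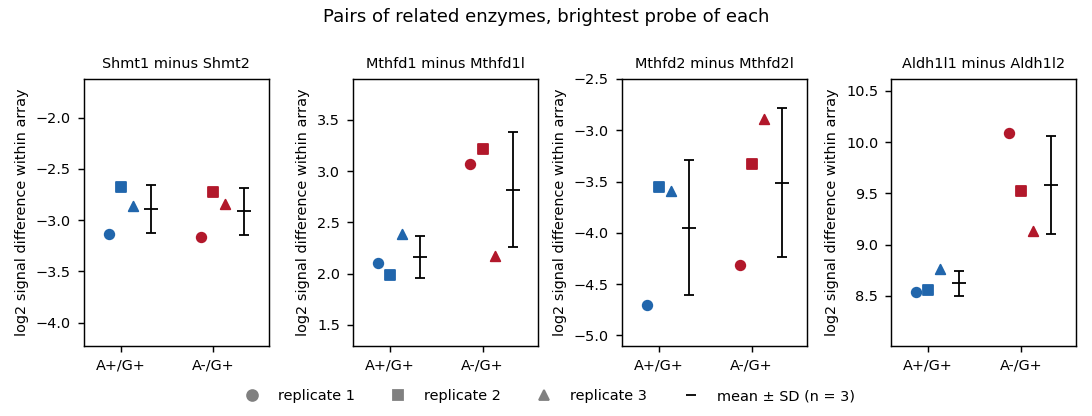
Difference of normalized log2 signal between 2 related enzymes on the same array (vertical axes, brightest probe of each gene) in A+/G+ (blue) and A-/G+ (red); each point is 1 array and the bars are the mean ± SD of 3 arrays. Shmt1 minus Shmt2 takes the same range in both fractions, whereas Aldh1l1 minus Aldh1l2 is higher on all A-/G+ arrays.

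Beyond the members, 46 genes of folate uptake, folate interconversion, nucleotide synthesis, the methionine cycle and NAAG turnover were read with the brightest probe of each. Of all gene symbols read this way, 12.9% were called, 7.88% as higher in A+/G+ and 5.01% as higher in A-/G+, and the fractions did not overlap in 42.9%. Of the 46 genes 5 were called as higher in A+/G+, 5 as higher in A-/G+ and 36 were not called. Background was not clearly exceeded on any array by 6 of the 46, and the fractions did not overlap in 22. The median difference of the 46 genes was -0.11, beside -0.03 over all gene symbols. The number of genes called changed when 1 array was left out, and so did the share called over all probes. The number was 3, 2 and 2 without A+/G+ replicates 1, 2 and 3. Without A-/G+ replicates 1, 2 and 3 it was 5, 6 and 15. Of all probes, 9.29% were called with all 6 arrays and 2.24 to 16.2% in these fits. Number and share both fell, except without A-/G+ replicate 3, where both rose. Nat8l and Slc19a1 were the 2 genes called in all 6 of these fits.

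Among 8 genes of folate uptake and retention, 1 was called in each direction, beside 12.9% of all gene symbols called in either. Slc19a1, the reduced folate carrier of the plasma membrane, read 10.76, 10.93 and 10.72 in A+/G+ and 9.89, 9.80 and 9.98 in A-/G+. It was higher in A+/G+ by 0.92 ± 0.09 (SE; limma, adjusted p = 0.009), and its dimmer probe by 1.55 (adjusted p = 0.011). Fpgs, which adds the glutamate chain that holds folates in the cell, read 9.32, 9.42 and 9.31 in A+/G+ and 9.96, 9.93 and 9.73 in A-/G+. It was higher in A-/G+, with a difference of -0.52 ± 0.09 (SE; limma, adjusted p = 0.030). Ggh, the lysosomal hydrolase that removes the same chain and is named here outside the rule, differed by 0.41 (limma, adjusted p = 0.242).

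Among 6 genes of folate reduction and interconversion, 0 were called by limma and 0 by the methods' t-test, and 3 and 2 had an unadjusted p of at most 0.05, beside the 23.3% and 22.5% of all probes. Of 8 genes of nucleotide synthesis, 1 was called, beside 12.9% of all gene symbols. Adsl, adenylosuccinate lyase of the purine pathway, read 9.34, 9.46 and 9.51 in A+/G+ and 9.80, 9.96 and 9.84 in A-/G+, a difference of -0.43 ± 0.08 (SE; limma, adjusted p = 0.035). For 7 of these 8 genes the mean was higher in A-/G+, and the median difference was -0.34.

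Markers of dividing cells are given beside these genes. Of 12 such markers 10 had all A-/G+ arrays above all A+/G+ arrays, where the fractions did not overlap in 42.9% of all gene symbols. Called were 3 (Mki67, Mcm3 and Ccnb1), each as higher in A-/G+, beside 12.9% of all gene symbols. The median difference of the 12 markers was -0.60. Their summed level on the log2 scale was 15.16 to 15.47 in A+/G+ and 15.68 to 15.97 in A-/G+. The differences of Shmt1 (brighter probe), Shmt2, Mthfd1, Mthfd2 and Adsl were also negative, from -0.69 to -0.43. So were those of both Aldh1l1 probes (-0.64 and -1.77). Those of Mthfd1l, Aldh1l2 and the dimmer Shmt1 probe (0.71) were positive. Of the 46 pathway genes, 28 had the higher mean in A-/G+, so this sign was common among them. The part of dividing cells in these differences was not tested.

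Of 16 genes of the methionine cycle, 3 were called, 1 as higher in A+/G+ and 2 as higher in A-/G+, beside 12.9% of all gene symbols. Ahcyl1 and Ahcyl2 encode proteins related to the hydrolase of S-adenosylhomocysteine and were called in opposite directions. Ahcyl1 read 10.31, 10.30 and 10.29 in A+/G+ and 9.77, 9.80 and 9.65 in A-/G+ (difference 0.56 ± 0.06 SE; limma, adjusted p = 0.012). Ahcyl2 read 10.77, 10.56 and 10.67 in A+/G+ and 11.31, 11.16 and 11.05 in A-/G+ (difference -0.51 ± 0.10 SE; limma, adjusted p = 0.043). Neither fraction overlapped the other in either gene, and the dimmer probes of both genes had the same sign but were not called. Mmachc, which processes cobalamin for methionine synthase, read 7.87, 7.90 and 7.80 in A+/G+ and 8.21, 8.26 and 8.15 in A-/G+ (difference -0.35 ± 0.06 SE; limma, adjusted p = 0.035).

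Bhmt, which remethylates homocysteine with betaine instead of folate, read 8.16, 8.72 and 8.00 in A+/G+ and 7.20, 5.54 and 6.53 in A-/G+ with its brightest probe. The difference of 1.87 was not called (limma, adjusted p = 0.083). A pair of dimmer Bhmt probes was called, with differences of 2.07 (adjusted p = 0.035) and 2.20 (adjusted p = 0.028), the latter too dim in A-/G+ to be well above background. Bhmt is named here after its values were seen.

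**Figure D3:**
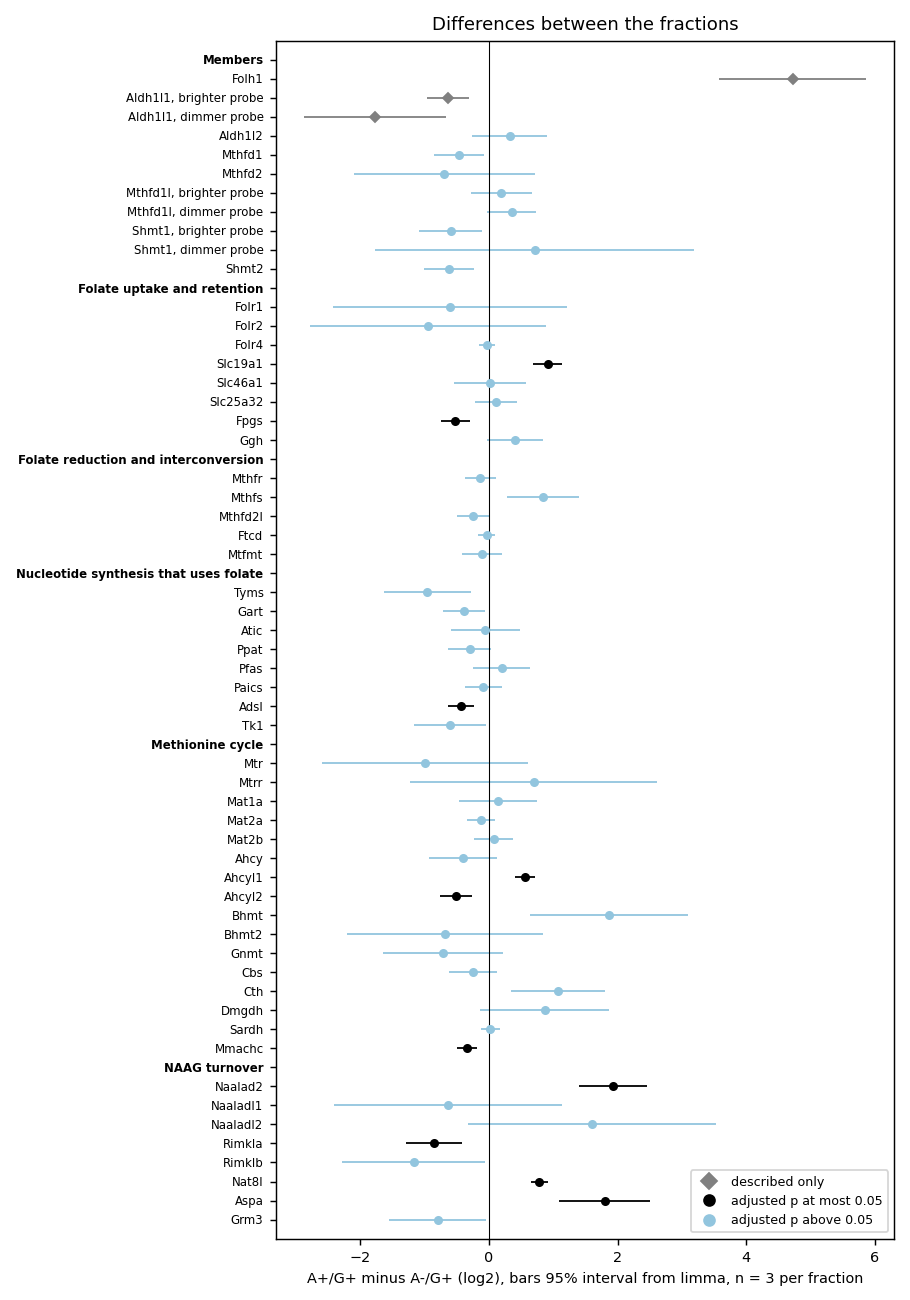
Difference of the fractions, A+/G+ minus A-/G+ (horizontal axis, log2), for the 11 member probes and for the brightest probe of 45 genes of related pathways, with 95% intervals from limma (n = 3 arrays per fraction). Folh1 and Aldh1l1 are grey and described without a test, so the intervals drawn for them are not read. Genes with an adjusted p of at most 0.05 are black and the others light blue, with 5 black points on each side of 0. The position of Folh1, farthest from 0, rests on A-/G+ values not well above background and is no measure of size.

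Of 8 genes of NAAG turnover, the second pathway of Folh1, 4 were called, 3 as higher in A+/G+ and 1 as higher in A-/G+. Of all gene symbols, 12.9% were called, 7.88% as higher in A+/G+ and 5.01% as higher in A-/G+. The median difference was 0.08. Whether the share of calls differs from that of other genes was not tested. NAAG is made from N-acetylaspartate and glutamate, is cleaved outside the cell back to both, and N-acetylaspartate is in turn broken down by the deacylase Aspa.

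Of the synthesis genes, Nat8l, which makes N-acetylaspartate, read 10.09, 10.02 and 10.09 in A+/G+ and 9.26, 9.32 and 9.27 in A-/G+. With this small spread it was higher in A+/G+ by 0.79 ± 0.05 (SE; limma, adjusted p = 0.005). The NAAG synthetases had the opposite sign. Rimkla read 9.36, 9.00 and 8.99 in A+/G+ and 10.05, 10.16 and 9.72 in A-/G+, a difference of -0.85 ± 0.17 (SE; limma, adjusted p = 0.045). Rimklb read 6.95, 6.42 and 6.69 in A+/G+ and 8.57, 8.00 and 7.01 in A-/G+ and was not called (difference -1.17, adjusted p = 0.195), and its dimmest probe differed by 0.03. Grm3, the metabotropic glutamate receptor at which NAAG acts, read 9.82, 9.98 and 10.08 in A+/G+ and 10.95, 11.17 and 10.14 in A-/G+ (difference -0.79, adjusted p = 0.194). Replicate 3 of A-/G+ was close to A+/G+ for both Rimklb and Grm3, and both were called without it, as 16.2% of all probes were.

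Of the hydrolases other than Folh1, Naalad2, a second peptidase that cleaves NAAG, was dim. It read 3.84, 4.31 and 4.36 in A+/G+, well above background on all 3 arrays, and 2.12, 2.06 and 2.54 in A-/G+, on none of which it was. It was called higher in A+/G+ (limma, adjusted p = 0.012), but its mean A+/G+ level did not exceed the mean background limit of the A-/G+ arrays, so no fold is given. Naaladl2, a related protein, read 5.05, 5.45 and 5.44 in A+/G+ and 2.15, 4.92 and 4.03 in A-/G+. With this probe it was well above background in A+/G+ alone, without a call (limma, adjusted p = 0.298). Its A+/G+ values lay below the background limit of 5.64 on A-/G+ replicate 1, so no fold is given. Its dimmer probe exceeded background clearly on 1 of 3 arrays in A-/G+ and read 4.24, 4.31 and 4.40 in A+/G+ and 1.78, 4.36 and 4.49 in A-/G+, where the fractions overlapped. Naaladl1, another relative, was dimmer still, and no array showed it well above background. Of the 46 genes Naalad2 was the 1 that was called with medians 4-fold apart, as 3.19% of all gene symbols were, but that fold rests on the dim A-/G+ values.

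Aspa read 9.28, 8.88 and 9.05 in A+/G+ and 7.24, 7.76 and 6.80 in A-/G+. All A+/G+ arrays were higher, by 1.80 ± 0.27 (SE; limma, adjusted p = 0.025), with medians 3.50-fold apart.

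**Figure D4:**
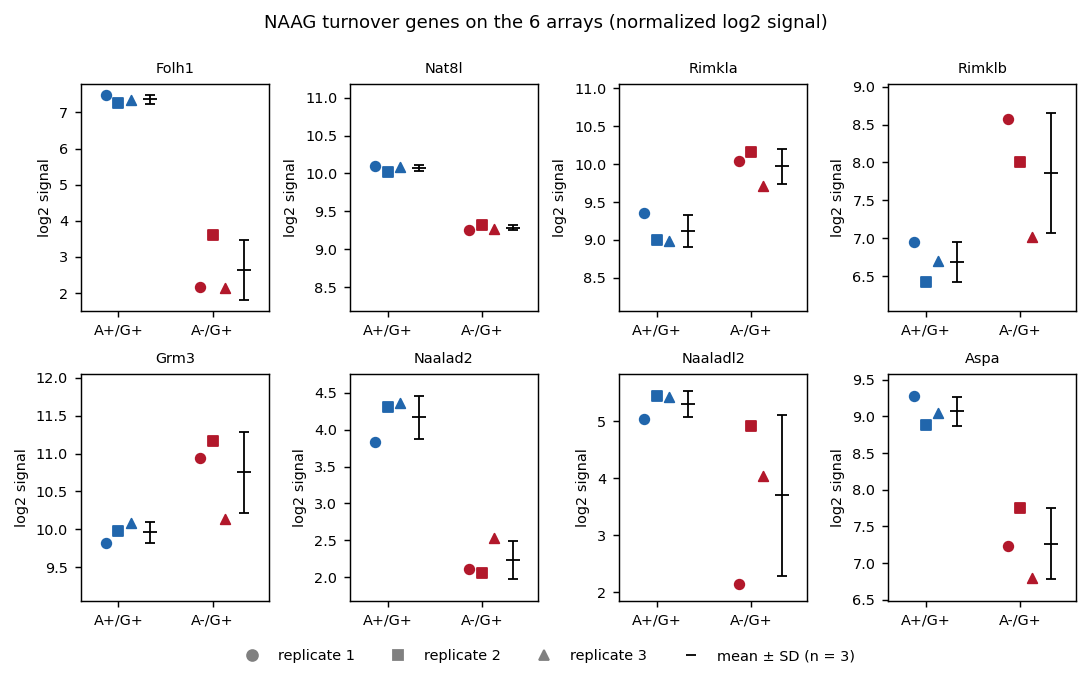
Normalized log2 signal (vertical axes, each panel with its own range) of Folh1 and of 7 genes of NAAG turnover in A+/G+ (blue) and A-/G+ (red); each point is 1 array and the bars are the mean ± SD of 3 arrays. Folh1, Nat8l, Naalad2, Naaladl2 and Aspa lie higher on all A+/G+ arrays, and Rimkla, Rimklb and Grm3 on all A-/G+ arrays. The A-/G+ values of Folh1, Naalad2 and Naaladl2 were not well above background. Naaladl1, whose fractions overlapped, is not plotted. Among all gene symbols the fractions did not overlap in 42.9%.

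Markers of other cell types were set beside Folh1 because the fractions were depleted differently. All 10 markers of astroglia were well above background somewhere in each fraction. Of these, 4 were called as higher in A+/G+ (S100b, Gfap, Gja1 and Atp1b2), and Atp1b2 among them is the target of the sort. Another 3, Slc1a3, Glul and Sox9, had the higher mean in A-/G+ without a call (differences -1.19, -0.35 and -0.36). The summed level of the 10 was 16.92 to 17.02 in A+/G+ and 16.52 to 17.28 in A-/G+ on the log2 scale. Of 6 markers of oligodendrocyte precursors, whose mature descendants express Aspa, 3 were called (Pdgfra, Olig1 and Olig2), each as higher in A+/G+. Their summed level was 13.77 to 14.08 in A+/G+ and 10.89 to 12.15 in A-/G+ on the log2 scale, and all 6 were above background on some array of each fraction. Olig2, a transcription factor of that lineage, read 10.14, 10.25 and 10.27 in A+/G+ and 5.65, 5.80 and 6.52 in A-/G+. Sox10 read 7.62, 8.12 and 8.38 in A+/G+ and 6.22, 6.43 and 8.43 in A-/G+, and Gpr17 read 10.41, 10.96 and 11.08 in A+/G+ and 9.15, 9.65 and 11.16 in A-/G+. On replicate 3 of A-/G+, Sox10 and Gpr17 were as high as in A+/G+, whereas the other 4 markers were below all A+/G+ arrays, with Olig1 at 9.34, Pdgfra at 9.46 and Cspg4 at 8.81. Folh1 was not well above background on that array, as on the other A-/G+ arrays, and Aspa read 6.80.

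Of 6 markers of Purkinje cells 5 were called, all 5 as higher in A+/G+, with summed levels of 11.99 to 13.49 in A+/G+ and 9.09 to 9.68 in A-/G+, where Calb1, Car8 and Foxp2 were not well above background. Pcp2, a marker of these cells, read 11.52, 9.85 and 10.48 in A+/G+ and 5.76, 5.80 and 5.34 in A-/G+. Of 6 markers of ciliated ependymal cells 5 were called in the same direction, with summed levels of 11.77 to 12.48 and 7.82 to 9.13, and in A-/G+ Spag17 was not well above background. Of 7 Bergmann glia markers 6 went the other way and were called as higher in A-/G+, the sign of Aldh1l1. Ptprz1 did not, and all its A+/G+ arrays lay above all A-/G+ arrays without a call (difference 0.68, limma, adjusted p = 0.173). The summed levels of the 7 were 14.46 to 14.65 in A+/G+ and 14.74 to 15.17 in A-/G+. In other lists, 0 of 7 pan-neuronal, 0 of 5 erythroid and 0 of 7 microglia and macrophage markers were called, with median differences of 1.26, 1.57 and -0.15. Of 6 markers of granule cell precursors 1 was called as higher in A-/G+ (Pax6), and 4 had the higher mean in A+/G+. For endothelial cells 1 of 6 was called, as higher in A+/G+ (Cdh5). Among all gene symbols 12.9% were called. The part of any of these cells in the values of Folh1, Aspa or Aldh1l1 was not tested.

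**Figure D5:**
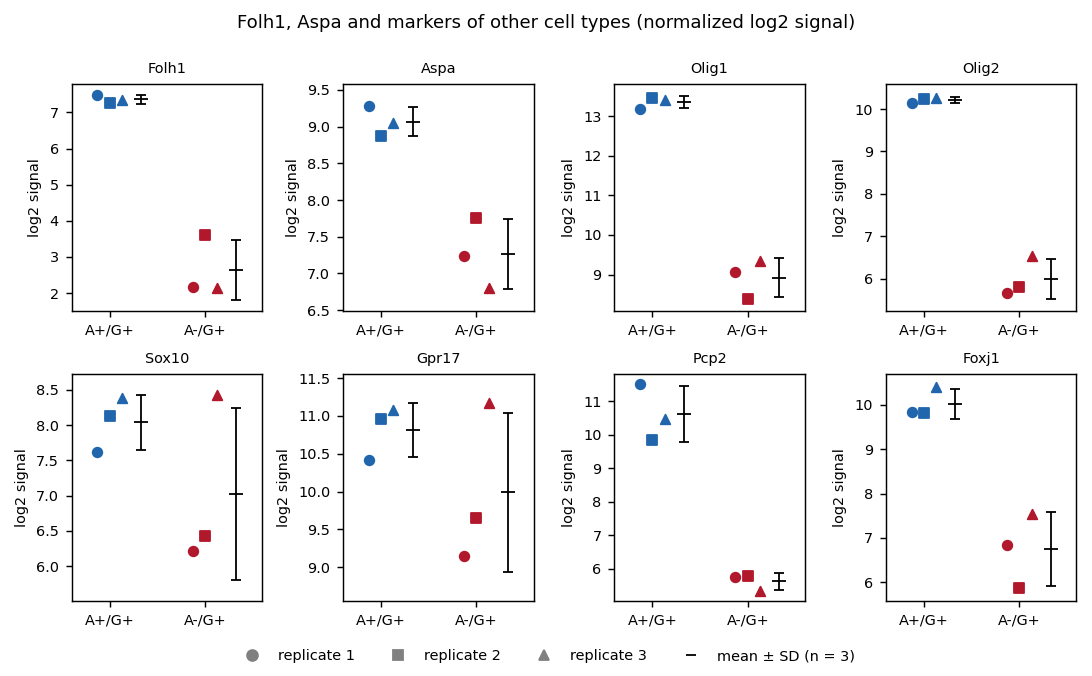
Normalized log2 signal (vertical axes, each panel with its own range) of Folh1, Aspa, 4 markers of oligodendrocyte precursors (Olig1, Olig2, Sox10, Gpr17), the Purkinje cell marker Pcp2 and the ependymal marker Foxj1 in A+/G+ (blue) and A-/G+ (red); each point is 1 array and the bars are the mean ± SD of 3 arrays. Folh1, Aspa, Olig1, Olig2, Pcp2 and Foxj1 are lower on all A-/G+ arrays, and Sox10 and Gpr17 reach the A+/G+ level on replicate 3 of A-/G+.

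The genes whose pattern over the 6 arrays was most like that of Folh1 were Rhcg (distance 0.58), Trh (0.83) and Foxb1 (0.89). The distance is Euclidean, on log2 values centred for each probe, among 14229 gene symbols well above background on at least 3 arrays. Rhcg, an ammonia transporter, read 8.33, 7.97 and 8.07 in A+/G+ and 2.30, 4.31 and 2.66 in A-/G+. Like Folh1, Rhcg and Trh were well above background on 0 of the 3 A-/G+ arrays, so both passed that filter through A+/G+ and their likeness within A-/G+ is read from values near background. For the brighter Aldh1l1 probe they were Ppp4r1l-ps (0.13), 4933436C20Rik (0.13) and Alg8 (0.14). These likenesses over 6 arrays of 2 fractions are a description.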

How the data were processed

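The members and gene lists were chosen with earlier results of these data known. RNA was amplified from polyA with T7 and labeled with Cy3, and hybridized to Agilent mouse 8x60K arrays in 1 color. The deposited scanner files give the intensity of each spot after background subtraction by Feature Extraction 10.7.3.1. The authors also deposited a table of log2 values, quantile normalized between arrays, which was used as an alternative.

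Intensities were taken to the log2 scale without control spots and spots marked as outliers, quantile normalized, and averaged over the spots of a probe. limma 3.58.1 (R 4.3.3; lmFit and eBayes, no covariate) compared A+/G+ with A-/G+ for each of the 55681 probes, and p-values were adjusted by Benjamini-Hochberg over all of them. A probe was called at an adjusted p of at most 0.05. The fit was tested on simulated data. Outside the members, a gene is represented by its probe with the highest mean signal.

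Named are all member probes, the genes of the pathway lists that were called, all genes of the NAAG list, and the 3 genes most like Folh1 and Aldh1l1. Ggh, Bhmt, Folr1 and Mtr are named outside this rule, after their values were seen. Of 138 listed genes 137 were found on the array, and the RefSeq table of GRCm38.p6 was used for names only. Where no array of a fraction showed a probe well above background, its level there is a bound. It is the lowest signal well above background on each array, or the probe's own where higher, averaged over the arrays of the fraction. 1 of the 46 pathway genes counted is not reported here by name. The number of arrays limits the precision. Same-numbered replicates correlated at 0.09, 0.06 and 0.01 in their deviations, so the numbers were not read as pairs. As alternatives, outlier spots were kept, dim probes were left out, the arrays were shifted to their 75th percentile or corrected with normexp (offset 50), and the values were taken from the authors' table. The methods' t-test, a robust fit with a variance trend, a replicate block, fits without 1 array, medians at least 4-fold apart and the mean of a gene's probes were also tried.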

Additional observations from a re-analysis of the deposited data

How the results depend on the processing

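The filter on dim probes kept 7 of the 8 tested member probes, of which 1 was called (Shmt2), beside 26.1% of all probes kept. When 1 array was left out, 0 to 1 of the 8 were called (Mthfd1 without A-/G+ replicate 3). The 46 further genes gave 10 calls, against 1 with the shift to the 75th percentile (Aspa), 5 with the methods' t-test, 1 when the medians also had to be 4-fold apart (Naalad2), 0 with the replicate block, and 2 to 15 when 1 array was left out. The share called among all probes was 9.29%, against 6.98% with the shift to the 75th percentile and 4.58% with the methods' t-test. When 1 array was left out, it was 2.24 to 16.2%. The replicate block left 0 calls among all 55681 probes, where 11671 had an unadjusted p of at most 0.05. The shift to the 75th percentile moved the median difference of all probes from -0.04 to -1.02, that of probes well above background on all arrays from -0.12 to -0.16, and the calls over all probes from 2589 in favor of A+/G+ and 2583 in favor of A-/G+ to 1227 and 2658. Under that shift the brighter Aldh1l1 probe differed by -1.01. Shmt1 minus Shmt2 changed sign with normexp (-0.069), ranged from -0.11 to 0.14 when 1 array was left out, and was 0.67 with the mean of all probes. Mthfd2 minus Mthfd2l changed sign with normexp (0.080), Aldh1l1 minus Aldh1l2 was -1.53 with the mean of all probes, and the dimmer Shmt1 probe ranged from -0.34 (without A-/G+ replicate 1) to 1.25 when 1 array was left out. The cause was not tested. Over the 22 tested named differences, 240 of 306 alternative fits kept direction and side of the threshold, 61 lost the call, 4 gained it and 1 changed sign. Of 42 fits of the 3 described probes of Folh1 and Aldh1l1, 2 moved by more than the spread between replicates. With 1 fraction on each slide, no fit with a slide block was possible. Signal near background limits Mthfd2, Aldh1l2 and the dimmer Shmt1 probe, which were not well above background on every array.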

Other observations

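Folr1, the folate receptor of the choroid plexus epithelium, varied widely among the A-/G+ replicates. Its brighter probe read 11.03, 10.57 and 10.26 in A+/G+ and 11.35, 9.86 and 12.46 in A-/G+ (limma, adjusted p = 0.629). From high to low, the arrays were A-/G+ replicates 3 and 1, then A+/G+ replicates 1, 2 and 3, then A-/G+ replicate 2. Clic6, another marker of that epithelium, read 10.08, 9.88 and 9.62 in A+/G+ and 10.32, 8.87 and 11.15 in A-/G+. Kcne2 read 9.42, 8.84 and 8.54 in A+/G+ and 9.97, 8.22 and 10.54 in A-/G+. Clic6 and Kcne2 put the 6 arrays in the same order as Folr1, while Ttr, Kl and Otx2 did not. Of the 6 choroid plexus markers, Folr1 included, 0 were called by limma and the arrays of the fractions overlapped in all 6. The part of such cells in the level of Folr1 was not tested.

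Mtr, methionine synthase, which takes its methyl group from folate, read 7.45, 7.67 and 8.22 in A+/G+ and 9.61, 9.23 and 7.49 in A-/G+. Replicates 1 and 2 of A-/G+ were the highest and replicate 3 lay within the A+/G+ range, so the fractions overlapped (difference -1.0, limma, adjusted p = 0.44). Mtr was called without that array, as 16.2% of all probes were.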
